A study of Zingiber officinale with 6 samples.

Results

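Expansins are secreted proteins that loosen the plant cell wall without cutting its polymers, so that a cell under turgor can enlarge. The alpha class (EXPA) acts on the contacts between cellulose and other wall polysaccharides, and the beta class (EXPB) is best known from grasses, where its members act on the xylan-rich walls of that group. Both classes form gene families, and in leaves their expression is usually highest while cells are still enlarging. Here 1 gene of each class was followed plant by plant in ginger, LOC122032820 (described as expansin-A4-like, alpha class) and LOC121994172 (described as expansin-B15-like, beta class), 2 of the 55601 genes in the tables. They were chosen by their own response in these libraries, from a list of expansin genes that the study had called upregulated. Among the listed genes that the edgeR fit below also called a differentially expressed gene (DEG), these 2 had the largest and the smallest fold change. Their rise in exposed plants and the difference in size between their changes are therefore given as a description, without a test.

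RNA-seq was performed on leaf blades of the uppermost leaves of ginger (Zingiber officinale, Laiwu variety) at 21 days. In the Po-VOCs group, 3 plants stood over jars of V8 agar in which Pythium oligandrum GAQ1, an oomycete used for biocontrol, was growing, and its volatile organic compounds (VOCs) reached the roots through holes in the pot. In the control group, 3 plants stood over jars of V8 agar without the oomycete. Both groups shared the sealed pot-jar assembly, the growth medium, the light cycle and the variety, and 1 library was made from each plant, named here control plant 1 to 3 and exposed plant 1 to 3. The reads had been mapped to the genome of another ginger variety, Zhangliang. The leaf is a bulk sample, in which more cells of a type and more RNA per cell cannot be told apart.

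The libraries were of like depth, with 13695463 to 14662442 counts on genes and 48697 to 50442 genes detected. Replicate plants differed by far more than counting noise, with a chi-square per degree of freedom of 17.5 to 37.1. In a principal-component analysis of the 500 most variable genes, control plant 3 lay apart from all other plants on the second component, with a score of -58.1 against a range of -4.17 to 35.6, so values that rest on it are also given without it. The labelled leaf tissue could not be checked well, because the annotation rows used here name few genes and hold only genes called upregulated in these libraries. The 3 rows with a chlorophyll a-b binding domain were detected in every plant, with means of 0.568 to 14.4 FPKM in control plants. LOC122029873, described as chlorophyll a-b binding protein CP24, had only 9, 12 and 3 counts in control plants 1, 2 and 3. The others are described as stress enhanced protein 2, so these rows do not settle the leaf label.

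LOC122032820 lies on chromosome 11A (Zo_v1.1, 16357293 to 16358405), with 38404 bases free of annotated genes before it and 36278 bases after it. Its annotation differs from that of its relatives in 1 respect. Of the 13 expansin genes in the annotation rows, all of which carry the expansin C-terminal domain (the polysaccharide-binding end of the protein), 12 also carry the lytic transglycolase domain that covers the barrel-shaped N-terminal end, and LOC122032820 is the 1 gene listed with the C-terminal domain alone. LOC121994172 lies on chromosome 6A (89514069 to 89515688), 1831 bases after the nearest annotated gene and 90325 bases before the next, and is listed with both domains. The primer pair that the study listed for quantitative PCR of LOC122032820 is shown as the designed sequence for this gene, and its match to related genes was not compared.
LOC122032820 forward primer: ccttcatcgccacaagtcca
LOC122032820 reverse primer: gagtccgcaaagacgtagcc

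LOC122032820 was low but uneven in the control plants, detected most in control plant 2, and far higher in every exposed plant. It had 0, 43 and 7 counts in control plants 1, 2 and 3, which is 0, 3.17 and 0.523 FPKM (fragments per kilobase of gene model, scaled to the library total). In exposed plants 1, 2 and 3 it had 647, 1073 and 539 counts, or 49.9, 77.3 and 40.5 FPKM. Every exposed plant lay above every control plant, and exposed plant 2 stood highest. The 0 counts of control plant 1 allow a level of up to 0.226 FPKM at a floor of 3 counts per library. Control plants averaged 1.23 ± 1.70 FPKM and exposed plants 55.9 ± 19.1 FPKM (SD, n = 3 each).

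LOC121994172 had more FPKM than LOC122032820 in each control plant and less in each exposed plant. It had 47, 71 and 15 counts in control plants 1, 2 and 3, or 3.06, 4.53 and 0.969 FPKM. In exposed plants 1, 2 and 3 it had 390, 366 and 484 counts, or 26.0, 22.8 and 31.5 FPKM. The groups again did not overlap, and here exposed plant 3 was the highest and control plant 3 the lowest. The means were 2.85 ± 1.79 FPKM in control plants and 26.8 ± 4.38 FPKM in exposed plants (SD, n = 3 each).

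**Figure D1:**
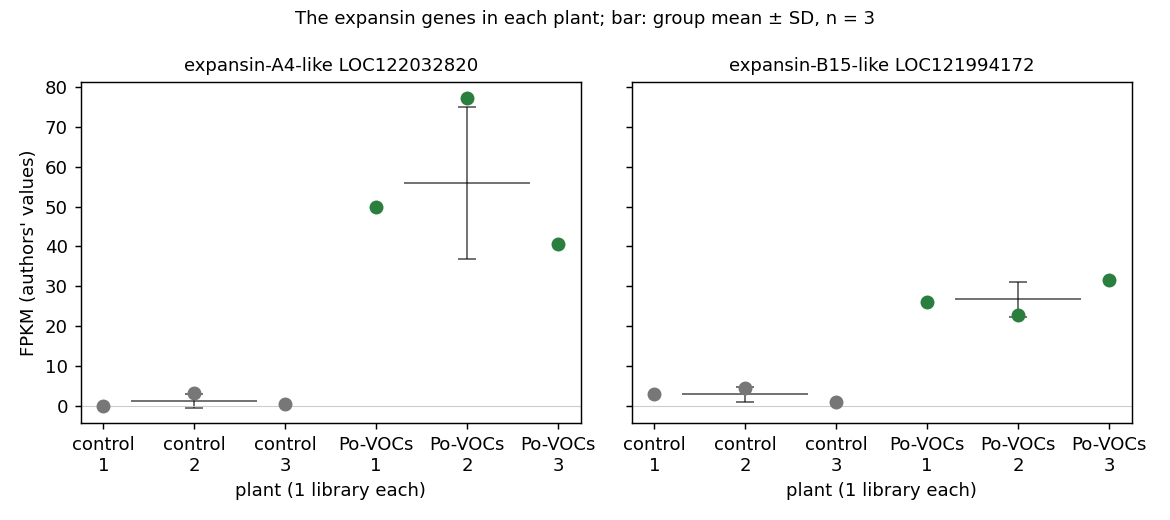
FPKM of LOC122032820 (left) and LOC121994172 (right) in each plant, with 1 point per plant (grey for control, green for Po-VOCs) and the group mean ± SD (n = 3). The A4-like gene spans 40.5 to 77.3 FPKM in exposed plants and 0 to 3.17 in control plants, and the B15-like gene spans 22.8 to 31.5 and 0.969 to 4.53.

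Fitted with edgeR across all genes, LOC122032820 was 44.7-fold higher in exposed plants, which is 5.48 on the log2 scale (standard error 0.96). The size of this change rests on control plant 2, which held 43 of its 50 control counts, and the log2 fold change was 7.69 without that plant. It was 4.92 without control plant 1, where the count was 0, and 5.11 without control plant 3. LOC121994172 was 9.35-fold higher, which is 3.23 on the log2 scale (standard error 0.50). Without control plant 3, the plant that lay apart in the other genes and had the fewest counts of this gene, it was 2.81. As a background, 14.5% of the 41508 genes tested had every exposed plant above every control plant in FPKM, and 1.09% were called DEGs in this direction (edgeR's quasi-likelihood test, adjusted p below 0.05, log2 fold change above 1 and mean FPKM above 1 in the higher group). Since these values chose the genes, nothing is read from their place in that background.

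The selection ran over the 12 expansin genes that could be tested. Just below LOC122032820 stood LOC122035009, at 31.6-fold, and just above LOC121994172 stood LOC122032600, at 10.98-fold. LOC122035015, at 8.85-fold, had a smaller change than LOC121994172 but missed the adjusted p limit. LOC122032436 missed it too, at 11.9-fold. DESeq2, fitted as an alternative, called LOC122035015 and LOC122016018 higher at 8.85-fold and 8.65-fold, below its 9.34-fold for LOC121994172. The difference between the log2 fold changes of the chosen genes, 2.26, was thus fixed in its direction by the choice. It lay between 1.61 (without control plant 1) and 3.96 (without control plant 2) when any 1 library was left out.

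Within the plants, the order of the pair turned over between the groups. In control plants LOC122032820 was the lower gene per length, at 0, 0.700 and 0.540 times the FPKM of LOC121994172 in plants 1, 2 and 3. In exposed plants it was the higher gene, at 1.92, 3.39 and 1.29 times. By FPKM every plant had the order of its group, on genes picked for their largest and smallest fold. The smallest excess, in exposed plant 3, came from the plant with the least LOC122032820 and the most LOC121994172. In that plant the 95% counting intervals were 37.2 to 44.1 FPKM and 28.7 to 34.4 FPKM and did not meet. In control plant 2 the intervals were 2.30 to 4.28 FPKM and 3.54 to 5.72 FPKM, and in control plant 3 they were 0.210 to 1.08 and 0.542 to 1.60. These intervals met, so at this depth the order was not resolved in those control plants, while it was in the other 4 plants. The intervals are exact Poisson ones and cover counting error only, not reads shared between similar genes, which were not examined.

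The plants of a group also ranked differently for each gene. For LOC122032820 the exposed plants ran from plant 2 (72.7 to 82.0 FPKM by counting error) through plant 1 (46.1 to 53.9) to plant 3 (37.2 to 44.1), with intervals that did not meet. For LOC121994172 they ran from plant 3 (28.7 to 34.4) to plant 2 (20.5 to 25.3), with plant 1 between them (23.5 to 28.7) and its interval meeting that of plant 2. The relative spread among exposed plants was 34.2% of the mean for LOC122032820 and 16.4% for LOC121994172. Among control plants it was 138% and 62.7%.

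LOC122032820 does not stand alone on its chromosome. It is 1 of 5 expansin-A4-like genes, with 3 before it and 1 after it, that lie within 244.6 kb of chromosome 11A, in a stretch with only 2 other annotated genes, neither of which is listed in the tables. Chromosome 11B holds 5 further expansin-A4-like genes within 299.1 kb, also with 2 other annotated genes among them. The spans of the 10 genes exceed the length behind their FPKM by 164 to 171 bases, while LOC121994172 exceeds its own by 525 bases. The remaining expansin-A4-like gene, LOC122016018 on chromosome 8B, has a span equal to its FPKM length, and had 7 counts in the control plants and 62 in the exposed plants, too few for the test. The annotation rows hold only genes that had been called upregulated in these libraries, so other expansin genes of the genome, unchanged or lower, were not analysed here, and the direction of the listed ones is no evidence. The paper reports many more genes with this domain in the genome, and most but not all of its expansin DEGs were upregulated.

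All 10 genes of these arrays, LOC122032820 included, were higher in FPKM in every exposed plant than in every control plant, beside 14.5% of all genes tested, and all had been listed for being upregulated in these libraries. The other 9 had means of 0.570 to 7.24 FPKM in control plants (median 2.04) and 6.85 to 66.6 FPKM in exposed plants (median 37.2). Their fold changes ran from 8.85 to 31.6, with a median of 12.3. LOC122035009 reached the highest mean of the arrays, 66.6 ± 14.9 FPKM in exposed plants against 2.09 ± 1.57 in control plants (SD, n = 3 each), and LOC122035015 had the highest control mean, 7.24 ± 6.78 FPKM. By mean FPKM LOC122032820 ranked 6 of the 10 in control plants and 4 in exposed plants. Its share of the summed FPKM of the 10 genes was 0%, 8.25% and 2.27% in control plants 1, 2 and 3 and 13.99%, 15.7% and 14.3% in exposed plants 1, 2 and 3.

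Of the 12 expansin genes tested, 10 were called higher in edgeR's quasi-likelihood fit, beside 1.09% of all genes tested, and DESeq2 called 13 of 13, beside 3.57%. Their median log2 fold change was 3.72 against 0.01 over all genes tested. The list was drawn from calls on these same libraries, so these counts describe it and support nothing. The edgeR calls depended on single plants, with 3 genes called without control plant 1, 0 without control plant 2, 6 without control plant 3, 10 without exposed plant 1, 0 without exposed plant 2 and 0 without exposed plant 3, with every tested expansin at an unadjusted p below 0.05 each time. Over all genes, 452 were called higher with all plants and 54, 1, 421, 969, 25 and 28 in the same order of plants left out. With all plants, 20.2% of the genes tested had an unadjusted p below 0.05 in either direction.

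The array genes shared much of the plant order of LOC122032820. By FPKM, control plant 1 was the lowest control plant, exposed plant 2 the highest exposed plant and exposed plant 3 the lowest in 10 of 10 genes. The highest control plant differed, being plant 2 in 6 genes, LOC122032820 among them, and plant 3 in 4. Exposed plants 1 and 3 were barely apart in LOC122032600, with 119 counts each, and in LOC122032436, with 65 and 66 counts, so that their order there came from library scaling. Over all genes tested, control plant 1 was lowest in 41.0%, exposed plant 2 highest in 27.0% and exposed plant 3 lowest in 51.7%, and over all genes called higher the shares were 61.9%, 28.5% and 32.3%. In control plant 1 the array genes had between 0 and 19 counts each. Both beta genes had another order, with control plant 3 lowest, exposed plant 2 lowest and exposed plant 3 highest. Among the genes tested, control plant 3 was lowest in 32.6%, exposed plant 2 lowest in 26.4% and exposed plant 3 highest in 25.1%. Among the genes called higher these shares were 16.8%, 35.2% and 32.1%. Similar genes can share reads, the similarity of these was not compared, and the counting mode is not stated. Genes on the A and B chromosomes may also be alleles of the same loci, which was not examined. The array genes may thus not be independent of each other, and their number is not a number of replicates or of loci.

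**Figure D2:**
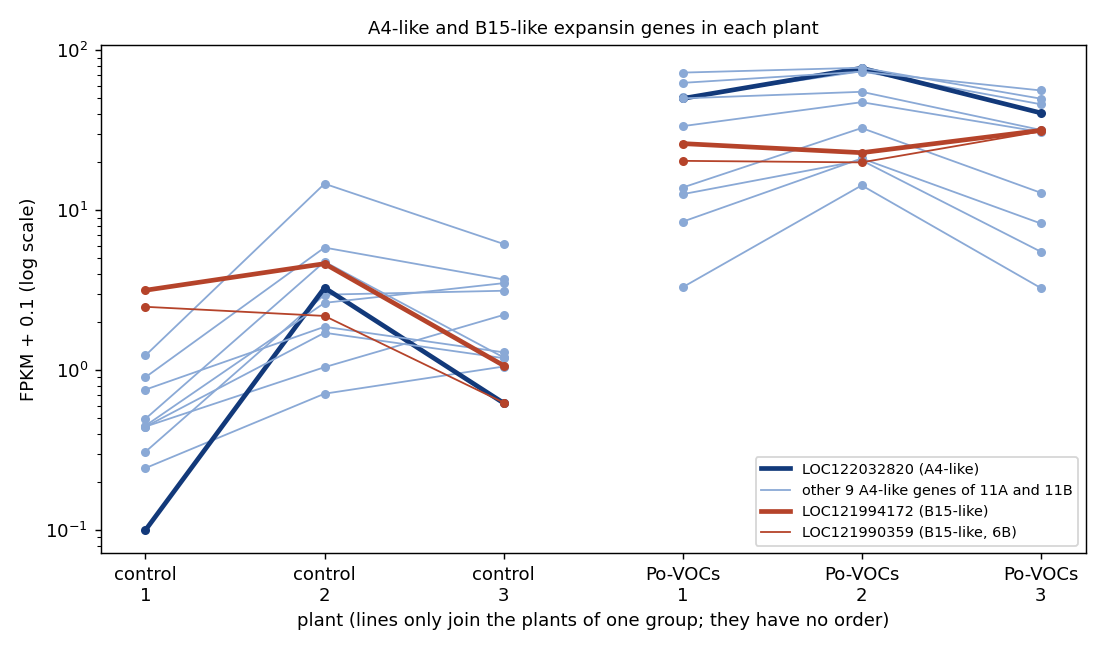
FPKM + 0.1 on a log axis for the 10 expansin-A4-like genes of chromosomes 11A and 11B (blue, LOC122032820 in bold) and the 2 expansin-B15-like genes (red, LOC121994172 in bold) in each plant. The blue lines are all lowest at control plant 1 among controls and highest at exposed plant 2 among exposed plants, while the red lines are lowest at control plant 3 and highest at exposed plant 3.

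The turn of order between the chosen genes did not extend to the sums of the listed genes of their classes. These sums set 10 array genes against 2 beta genes, all listed as upregulated, and leave out LOC122016018. Their ratio is thus not a ratio per gene or of whole classes. The summed FPKM of the 10 array genes was 4.38, 38.5 and 23.1 in control plants 1, 2 and 3 and 357, 493 and 284 in exposed plants 1, 2 and 3. For both beta genes together it was 5.45, 6.61 and 1.496 in control plants and 46.3, 42.6 and 62.5 in exposed plants. The group means were 17.2-fold higher for the arrays and 11.2-fold higher for the beta genes in exposed plants. The alpha sum was 0.804, 5.81 and 15.4 times the beta sum in control plants and 7.71, 11.6 and 4.55 times in exposed plants. The groups overlapped, with both the lowest and the highest ratio in control plants. The highest came from control plant 3, the plant that lay apart in the other genes, and without it the control ratios of 0.804 and 5.81 still overlapped those of exposed plants. Against LOC121994172 alone, 0, 3 and 8 of the 10 array genes were higher per length in control plants 1, 2 and 3, and 6, 7 and 5 in exposed plants.

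**Figure D3:**
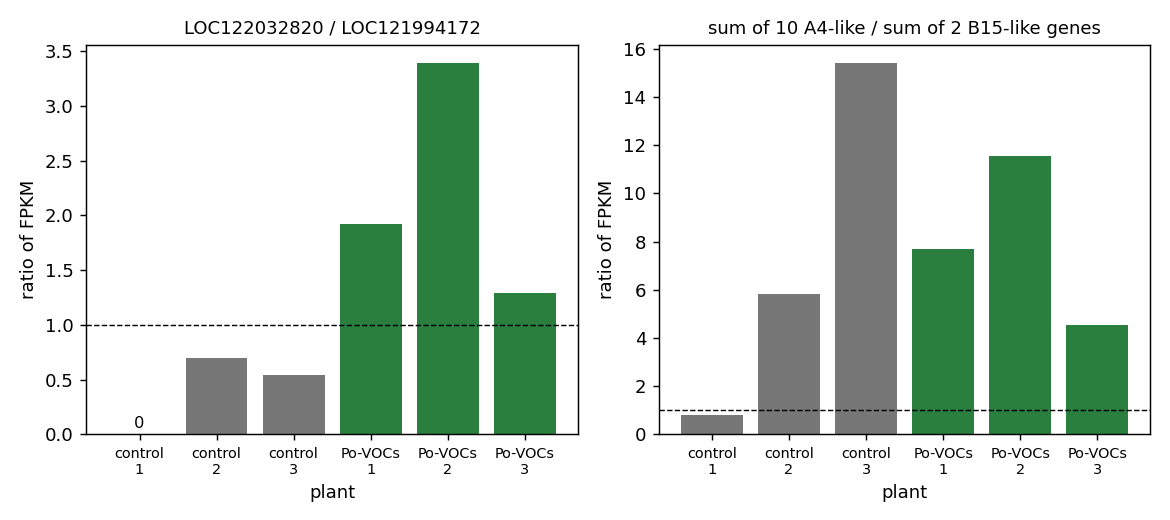
Ratio of FPKM of LOC122032820 to LOC121994172 (left) and of the summed 10 A4-like to the summed 2 B15-like genes (right) in each plant, with a dashed line at 1. On the left all control plants lie below 1 and all exposed plants above it, and on the right the control plants span 0.804 to 15.4, wider than the 4.55 to 11.6 of the exposed plants.

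The ginger genome is annotated as A and B chromosome sets, and the expansin genes can be set side by side by their order on 11A and 11B and on 6A and 6B. No sequence was compared, so genes at the same place need not be counterparts. Whether they are alleles of the same locus or separate genes was not examined. LOC122035140 stands at the place of LOC122032820 on 11B (12333959 to 12335023), with a span that differs by 4.31%. It had 5, 60 and 14 counts in control plants 1, 2 and 3 and 615, 724 and 400 in exposed plants 1, 2 and 3, which puts the plants of each group in the order seen for LOC122032820. Its change was 4.45 on the log2 scale (standard error 0.72), which is 1.04 below that of LOC122032820, and the difference was not tested. The gene placed with LOC121994172 is LOC121990359 on 6B (83469615 to 83470929), the other expansin-B15-like gene, whose span differs by 18.8%. It had 2.39, 2.08 and 0.527 FPKM in control plants 1, 2 and 3 and 20.3, 19.8 and 31.0 in exposed plants, and a log2 fold change of 3.83 (standard error 0.53). The other 4 places had A minus B differences of -0.44 to 0.31 on the log2 scale.

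**Figure D4:**
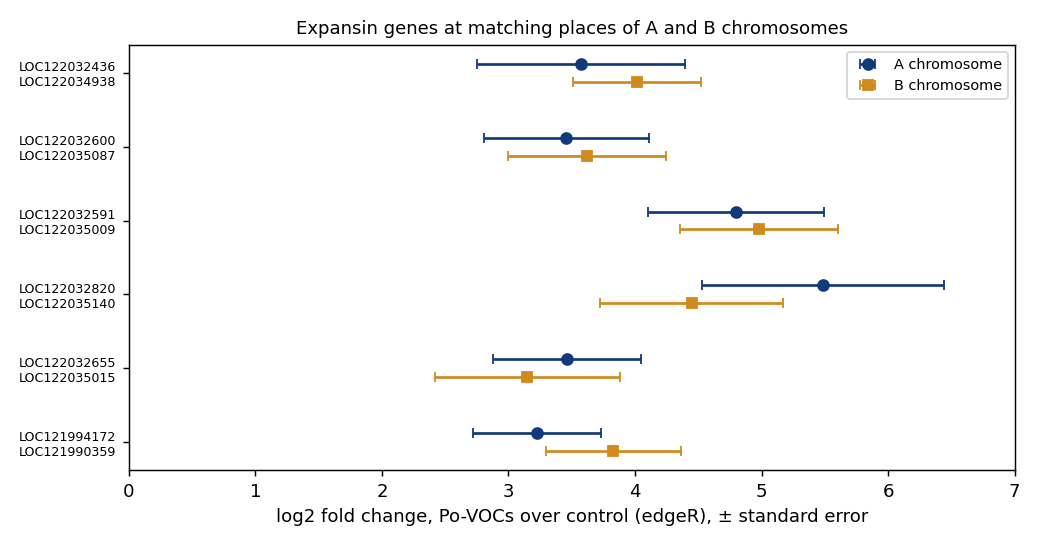
Log2 fold change (Po-VOCs over control, edgeR, ± standard error) of expansin genes at matching places of the A (blue circles) and B (orange squares) chromosomes. The error bars of A and B overlap at all 6 places, and the widest gap, 1.04, is at LOC122032820 and LOC122035140.

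No gene tested around either expansin, other than expansins, passed the edgeR threshold. Among the 10 listed genes on each side of LOC122032820, 4 are expansins and 16 are not. Of those 16, 9 had enough counts for the test, and edgeR's quasi-likelihood test called 0 of them, with 1 at an unadjusted p below 0.05 (20.2% of all genes tested), while DESeq2 called 0 (6.58% of all genes tested, either direction). Their log2 fold changes ran from -0.49 to 0.82 with a median of -0.02. The 20 genes around LOC121994172 hold no other listed expansin, and of the 14 tested edgeR called 0, with 4 at an unadjusted p below 0.05. DESeq2 called 1 of these 20, LOC121994169, which went from 14.2 to 47.2 mean FPKM and had a log2 fold change of 1.75 in edgeR. The 14 had log2 fold changes of -0.79 to 1.75 with a median of 0.11. In the whole table edgeR called 2.11% of tested genes in either direction, so 0 of 9 and 0 of 14 are near that background.

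The genes whose pattern over the 6 libraries was most like that of each expansin were sought among 14779 other genes (mean of the higher group over 10 FPKM) by Pearson's r of log2 CPM (counts scaled to library size). Since the libraries form only a pair of groups, r mostly reflects the group difference and is given as a description. LOC122035140, the gene at the matching place on 11B, came closest to LOC122032820 with r = 0.997, and another array gene, LOC122032655, ranked 6 with r = 0.993. Between them stood LOC122030858, LOC122034353, LOC122046532 and LOC122042016 (r = 0.997, 0.995, 0.994 and 0.994), which no annotation row used here describes. These 4 were abundant genes with mean levels of 121 to 223 FPKM in control plants and 499 to 545 FPKM in exposed plants. For LOC121994172 the closest gene was LOC122015078 (r = 0.994, no description), followed by its 6B partner LOC121990359 (r = 0.992). Then came LOC122025718, described as a thiamine thiazole synthase, an enzyme of vitamin B1 synthesis (r = 0.992), LOC122025567, described as a BOI-related E3 ubiquitin-protein ligase (r = 0.992), and LOC122016745 (r = 0.989, no description). The log2 fold changes of LOC122015078, LOC122025718, LOC122025567 and LOC122016745 were 0.53, 1.63, 2.51 and 0.26. A high r thus does not mean a rise of like size. The chosen genes correlated with each other at r = 0.886, which placed LOC121994172 at rank 598 for LOC122032820.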

How the data were processed

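According to the paper's methods, reads of stranded mRNA libraries were trimmed with Trimmomatic, mapped with HISAT2 to Zo_v1.1 and counted per RefSeq gene with HTSeq-count. Of the versions, counting mode and strand option, the sources used here give none. The counts were deposited by the authors as whole numbers without normalization. The authors deposited FPKM as well, attributed to Cufflinks, and all 299269 values above 0 equalled count divided by gene length and total count within 0.1%.

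Counts were fitted in R 4.3.3 with edgeR 4.0.16 (filterByExpr, minimum count 10 and total 15, TMM factors, quasi-likelihood test, no covariate, Benjamini-Hochberg adjustment over 41508 genes). Standard errors were taken from the size of the log2 fold change over the root of its F statistic. DESeq2 1.42.0 and limma 3.58.1 on log2 FPKM served as alternatives, and the code was tested on simulated data. Log2 CPM had a prior count of 2.

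Gene descriptions, domains and gene lists came from 1517 annotation rows of the study, which had called every one of these genes upregulated; its own fold changes and p-values were not used. Coordinates and gene order came from the RefSeq gene table of Zo_v1.1. The members and lists were chosen with earlier results of these data known. Genes were named by a rule: both members, the expansin genes with the largest and smallest changes and highest levels, genes at matching places, neighbours, the 5 most alike in pattern, and the called gene with the largest change in each other cell wall list. LOC122032655 and LOC121994169 were named after their values had been seen. Expansin relatives had been planned from protein similarity, together with promoter motifs, and neither was run because no sequence table was used.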

Additional observations from a re-analysis of the deposited data

How the results depend on the processing

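The log2 fold change of LOC121994172 moved by less than the spread between plants in DESeq2, with RLE factors, with total counts only, without the count filter, with the replicate block, in limma on log2(FPKM + 1) and log2(FPKM + 0.1), and with any 1 library left out (2.81 to 3.73). The same settings left LOC122032820 within its wider spread, except without control plant 2, at 7.69 (range 4.92 to 7.69 with 1 library left out). It was 4.89 in limma with a pseudocount of 1 and 6.52 with 0.1. With the replicate block the values were 6.04 and 3.34, and the number of expansin genes called higher fell from 10 to 1, as the calls over all genes fell from 452 to 65. No label ties plants of the same number. Deviations of same-numbered plants correlated at -0.02, 0.02 and -0.10, against -0.21 to 0.18 for the other combinations. With so few plants these values cannot decide whether the plants were paired. With 1 library left out, 0 to 10 expansin genes were called higher. None of the listed expansins was called lower by edgeR, DESeq2 or limma in any of these settings, and 0 were lower at an unadjusted p below 0.05 with all plants in edgeR, a direction that the choice of the list fixes. The alternative limit on protein similarity was not run. Depth limits the control levels of LOC122032820, with 50 counts in all, more than its exposed levels.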

Other observations

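Other cell wall genes of the annotation rows were read with the same fit. These rows hold only genes that had been called upregulated in these libraries, so their direction is fixed by the choice and the counts below are descriptions. Over all genes tested, edgeR called 1.09% higher, DESeq2 called 3.57% higher, and 20.2% had an unadjusted p below 0.05 in edgeR in either direction. DESeq2 called every gene of each list higher, 10 of 10 xyloglucan enzymes and 5 of 5 pectinesterases included. Xyloglucan endotransglucosylase/hydrolases, which cut and rejoin the xyloglucan chains between cellulose fibrils, had 4 of 9 tested genes called higher by edgeR, with a median log2 fold change of 3.23. Of these, LOC122056226 went from 2 counts over the control plants to 198 over the exposed plants. Scaled to library totals this was 99.1 times, with 27.1 to 824 as the exact 95% counting interval. Among pectin-modifying enzymes, 1 of 4 tested pectinesterases was called, LOC121985699, which went from 0.0497 ± 0.0454 to 1.56 ± 0.81 FPKM (SD, n = 3 each). The call also fell on 1 of 2 pectate lyases (LOC122048887, from 1.55 ± 0.11 to 5.72 ± 0.52 FPKM) and 1 of 2 polygalacturonases (LOC122041773, from 0.161 ± 0.051 to 1.32 ± 0.50 FPKM).

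Both fasciclin-like arabinogalactan protein genes, 2 of 2, were called, and the larger change was that of LOC122029902, from 4.83 ± 1.57 to 15.1 ± 1.54 FPKM (SD, n = 3 each). Of the aquaporins, which let water through membranes, 2 of 2 tested genes were called, and LOC121976067, described as a tonoplast TIP2-2, went from 10.4 ± 0.99 to 45.4 ± 7.83 FPKM. No cellulose synthase gene was called by edgeR (0 of 5, with all 5 at an unadjusted p below 0.05 and all 5 called by DESeq2). The same held for the glycosyl hydrolase family 9 gene (0 of 1, with 1 at an unadjusted p below 0.05 and 1 called by DESeq2). The 3 listed genes with a chlorophyll a-b binding domain, read as the nearest held marker of green tissue, had control means of 0.568 to 14.4 FPKM, with 0 called by edgeR, 3 at an unadjusted p below 0.05 and 3 called by DESeq2. In LOC122029873 the groups overlapped, and the rise came mostly from exposed plant 1, with 487 counts against 11 and 31 in exposed plants 2 and 3.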
